A study of Rattus norvegicus with 15 samples.

Results

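The blood vessels of dorsal CA1, the field of the hippocampus dissected here, were followed through 10 genes of the vessel wall: Cldn5, Pecam1, Flt1, Kdr, Tek, Rgs5, Pdgfrb, Tagln, Acta2 and Slc22a8. They were chosen by name, with earlier results of these data known. Of the 10, 8 have a row among the 22314 rows of the count table, and Cldn5 and Pecam1 were not analysed here. The 15 libraries were made from bulk dorsal CA1 of wild-type Sprague-Dawley rats, all male and 8 to 9 weeks old. The 5 naive libraries (replicates 1, 2, 9, 11 and 12) came from untrained rats given a scrambled control siRNA (Scr-siRNA). The 5 scrambled trained libraries (5, 6, 10, 15 and 16) came from rats given the same control siRNA and then contextual fear conditioning, in which a place is paired with a shock. The 5 Rnf20-labelled libraries (4, 8, 14, 18 and 20) came from rats labelled as given siRNA against Rnf20 and the same conditioning. Every rat carried an intracerebral siRNA injection, of the Accell type that enters cells without a carrier. In the 2 trained groups training followed 5 days after it. There was no uninjected group and no untrained group with the Rnf20 siRNA, and the interval between training and dissection is not given in the sources used here.

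A brain capillary is a tube of endothelial cells joined by tight junctions, wrapped by pericytes inside a shared basement membrane, while arterioles carry a coat of contractile smooth muscle. Endothelial cells sense vascular endothelial growth factor (VEGF) and angiopoietins through receptor tyrosine kinases, and they recruit pericytes by releasing PDGF-B onto the receptor that Pdgfrb encodes. In bulk tissue, fewer vascular cells and less RNA per vascular cell cannot be told apart.

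The promoters of the 3 members whose scrambled trained libraries all lay below all naive libraries are shown with the core letters GGAA, which ETS factors of endothelial cells such as Erg and Fli1 bind. The capitals mark GGAA on the printed strand or its reverse complement TTCC. Each runs 5′ to 3′ on the strand of the gene, from 250 bases before to 50 bases after the RefSeq start, in build GRCr8. Kdr lies at chr14:32571813-32572112, Rgs5 at chr13:84380827-84381126 and Slc22a8 at chr1:214927034-214927333, all on the plus strand.
Kdr: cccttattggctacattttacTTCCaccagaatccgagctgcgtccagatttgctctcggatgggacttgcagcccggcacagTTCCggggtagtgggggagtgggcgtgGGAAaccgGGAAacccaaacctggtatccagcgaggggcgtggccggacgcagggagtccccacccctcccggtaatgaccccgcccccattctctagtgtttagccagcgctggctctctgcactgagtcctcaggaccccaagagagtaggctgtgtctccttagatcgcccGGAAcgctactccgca
Rgs5: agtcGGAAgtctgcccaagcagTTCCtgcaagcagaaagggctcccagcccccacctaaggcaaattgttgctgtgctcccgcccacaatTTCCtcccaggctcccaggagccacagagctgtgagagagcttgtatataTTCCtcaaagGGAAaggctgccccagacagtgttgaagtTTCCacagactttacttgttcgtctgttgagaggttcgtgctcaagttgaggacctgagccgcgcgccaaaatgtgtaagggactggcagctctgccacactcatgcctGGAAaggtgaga
Slc22a8: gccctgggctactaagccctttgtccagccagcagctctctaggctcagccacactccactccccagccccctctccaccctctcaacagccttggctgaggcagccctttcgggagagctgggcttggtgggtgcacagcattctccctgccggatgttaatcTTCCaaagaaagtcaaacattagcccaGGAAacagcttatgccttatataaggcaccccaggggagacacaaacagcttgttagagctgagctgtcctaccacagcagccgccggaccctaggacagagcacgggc
There were 5 matches in Kdr, 7 in Rgs5 and 2 in Slc22a8, against 3 in Flt1, 3 in Acta2 and a median of 3 over 27457 RefSeq promoters of the same length. Since 95.8% of those promoters hold at least 1 match, its presence does not set these genes apart. The CArG box, the element bound by serum response factor in smooth muscle genes, was searched on both strands in its strict consensus form, which 1.64% of all promoters hold and none of the 5 member promoters in the table does. That search passes over boxes with 1 base off the consensus, a form known from the promoter of Acta2. It therefore does not show that Acta2 lacks the element. Tek, Pdgfrb and Tagln had no promoter sequence in the source used and were not searched. A match is a run of letters and not a measured binding site.

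Rnf20, the target of the siRNA and a subunit of the ligase that ubiquitinates histone H2B, was at 41.8 ± 2.28 CPM (counts scaled to a common library size) in naive, 43.2 ± 5.39 CPM in scrambled trained and 42.0 ± 2.32 CPM in Rnf20-labelled libraries (SD, n = 5 each). Single Rnf20-labelled libraries lay at 38.3 to 44.6 CPM and scrambled trained ones at 36.4 to 48.5 CPM, so the former group is named by its label only. Each naive library held 14249375 to 17046535 counts in total, each scrambled trained library 15342480 to 20644425 and each Rnf20-labelled library 12537250 to 18458527. All 8 measured members passed the filter on low counts, with 67 to 4682 counts per library. The CA1 neuron markers Wfs1 and Pou3f1 were present in every library, at 132 to 1020 and 14.8 to 75.4 CPM, and the summed CA1 list was lowest in scrambled trained replicate 10. The libraries differed in their share of other tissue and in glial reaction: the summed level of 14 choroid plexus genes ran from 1518.5 to 4730.2 CPM in naive, 14.2 to 4547 CPM in scrambled trained and 93.1 to 1974 CPM in Rnf20-labelled libraries, and that of 15 reactive glia genes from 3499.7 to 5369.7, 4794 to 10498 and 2672 to 9063 CPM. Red cell genes summed to 155 to 262, 222 to 1808 and 179 to 748 CPM.

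The first question was which vascular transcripts differed after contextual fear conditioning under scrambled siRNA. Slc22a8, Kdr, Rgs5 and Pdgfrb were lower in scrambled trained than in naive libraries (changes of -18.5% to -36.4%), and Tagln was 3.61-fold higher on average. None of these differences passed the threshold of adjusted p 0.05 over the 14880 genes tested. That threshold called 0 genes of any kind (0% of those tested) by edgeR's quasi-likelihood test, which had 1484 genes at an unadjusted p under 0.05. DESeq2 called 58 genes, Slc22a8 the only member among them, and limma-voom called 0. At an unadjusted p under 0.05, 4 of the 8 members were lower, beside 3.35% of all genes, and 1 was higher, beside 6.62%. In 3 of 8 members, Kdr, Rgs5 and Slc22a8, every scrambled trained library lay below every naive library, beside 0.659% of all genes. Of the 8 fold changes 6 were below 0, against 52.8% of all genes, and their median was -0.27 on the log2 scale, against -0.01 over all genes. Because the members were chosen with earlier results of these data known, these shares describe them and do not test them as a set. Genes of other cell types were lower by value in the same comparison: all 12 oligodendrocyte genes were below 0 (median -0.26), 4 of them at an unadjusted p under 0.05, and all 10 pan-neuronal genes were below 0 (median -0.20), 0 of them at that p. What part the cell makeup of the samples had in the vascular values was not tested.

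**Figure D1:**
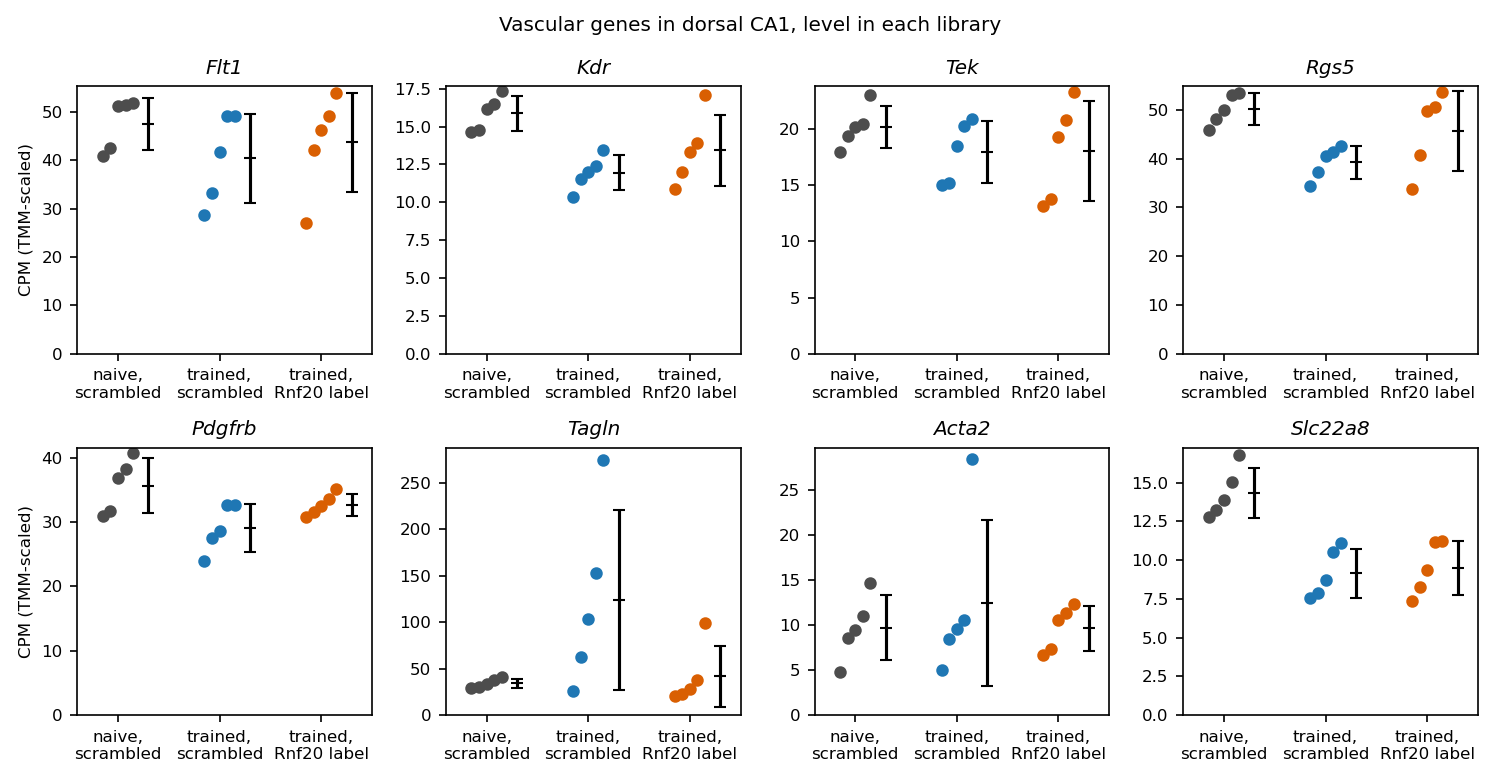
Level of the 8 measured vascular genes in each library, in CPM on axes that start at 0, by group. Points are libraries and bars are the mean and SD of 5; the scrambled trained points of Kdr, Rgs5 and Slc22a8 all sit below the naive points, and those of Tagln run from 26.0 to 275 CPM.

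Among the endothelial receptors, Kdr encodes VEGF receptor 2, which carries the main growth and permeability signal of VEGF. Kdr was at 17.3, 14.8, 14.7, 16.5 and 16.2 CPM in naive replicates 1, 2, 9, 11 and 12. In scrambled trained replicates 5, 6, 10, 15 and 16 it was at 13.5, 12.0, 12.4, 10.4 and 11.5 CPM. In Rnf20-labelled replicates 4, 8, 14, 18 and 20 it was at 17.1, 13.9, 12.0, 10.9 and 13.3 CPM. The naive and scrambled trained libraries did not overlap, while the Rnf20-labelled libraries spanned most of both ranges. From naive to scrambled trained the log2 fold change was -0.41 (SE 0.11; edgeR adjusted p = 0.379), a change of -24.8% with a 95% interval of -36.4% to -10.9%.

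Flt1 encodes VEGF receptor 1, which binds VEGF tightly and also exists as a soluble decoy. Its naive libraries held 51.3, 51.8, 42.5, 51.1 and 40.8 CPM in the same order of replicates. The scrambled trained libraries held 49.2, 49.2, 33.3, 28.6 and 41.6 CPM. Rnf20-labelled libraries held 54.0, 49.1, 46.2, 27.0 and 42.1 CPM. Most libraries of the 3 groups overlapped, and 3 trained ones stood lowest: scrambled trained replicates 15 and 10 and Rnf20-labelled replicate 18. The log2 fold change of scrambled trained against naive was -0.24 (SE 0.18; adjusted p = 0.681), and its interval ran from -34.6% to 10.1%.

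Tek encodes Tie2, the endothelial receptor for angiopoietins, which steadies mature vessels. It was at 20.5, 20.2, 19.4, 23.1 and 18.0 CPM in naive libraries. It was at 20.4, 18.5, 15.0, 15.3 and 20.9 CPM in scrambled trained libraries and at 23.4, 20.9, 19.3, 13.2 and 13.8 CPM in Rnf20-labelled libraries. The groups overlapped, and 4 trained libraries, scrambled trained replicates 10 and 15 and Rnf20-labelled replicates 18 and 20, lay below all naive libraries. The difference of scrambled trained from naive was -0.17 on the log2 scale (SE 0.15; adjusted p = 0.738).

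The 3 libraries lowest for Flt1 were also the 3 with the highest summed reactive glia levels: 10498 and 9414 CPM in scrambled trained replicates 15 and 10 and 9063 CPM in Rnf20-labelled replicate 18, against at most 7408 CPM elsewhere. Timp1, a protease inhibitor induced in reactive astrocytes, was at 55.5, 58.4 and 41.4 CPM in them and at 4.13 to 8.85 CPM in naive libraries. Scrambled trained replicate 16, with Flt1 inside the naive range, was at 40.6 CPM of Timp1. The remaining trained libraries were at 3.25 to 18.5 CPM. With the reactive glia score as a covariate, the fold change of scrambled trained against naive was 0.0075 for Flt1 and 0.0056 for Tek, while it was -0.30 for Kdr (adjusted p = 0.603), -0.26 for Rgs5 (adjusted p = 0.610) and -0.27 for Pdgfrb (adjusted p = 0.603). The reactive glia level itself went largely with group, at 4794 to 10498 CPM summed in scrambled trained and 3499.7 to 5369.7 CPM in naive libraries. The covariate therefore cannot separate glial reaction from training. What part glial reaction had in the vascular levels was not tested.

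In pericytes, Rgs5 encodes a regulator that shortens signalling by G proteins and is a widely used marker of these cells. Rgs5 was at 53.2, 48.3, 45.8, 53.5 and 50.0 CPM in naive libraries. It was at 41.4, 42.6, 37.3, 34.3 and 40.6 CPM in scrambled trained libraries and at 53.7, 50.5, 40.8, 33.8 and 49.8 CPM in Rnf20-labelled libraries. No scrambled trained library reached a naive one, whereas 3 of the 5 Rnf20-labelled libraries lay within or above the naive range. The difference between scrambled trained and naive was -0.35 on the log2 scale (SE 0.11; adjusted p = 0.380), a change of -21.8% with an interval of -33.5% to -8.05%.

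Pdgfrb, the pericyte receptor for endothelial PDGF-B, showed a difference of similar size with overlap. Its level was 38.2, 36.8, 30.8, 40.7 and 31.6 CPM in naive libraries. Scrambled trained libraries held 32.6, 27.5, 28.5, 23.9 and 32.7 CPM, and Rnf20-labelled libraries held 33.6, 35.1, 31.5, 30.8 and 32.4 CPM. Of the scrambled trained libraries 3 were below all naive ones, and the Rnf20-labelled libraries kept to a narrow band inside or at the edge of the naive range. Scrambled trained against naive gave -0.30 (SE 0.10; adjusted p = 0.384), with an interval of -29.4% to -5.89%.

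Tagln encodes transgelin, an actin-binding protein abundant in contractile smooth muscle, and it had the widest spread of any member in both trained groups. Naive libraries held 33.4, 40.6, 30.2, 37.9 and 29.1 CPM. Scrambled trained replicates 5, 6, 10, 15 and 16 held 26.0, 153, 275, 62.3 and 103 CPM. Rnf20-labelled replicates 4, 8, 14, 18 and 20 held 22.4, 37.8, 20.4, 99.2 and 28.5 CPM. In the scrambled trained group 4 of 5 libraries exceeded all naive ones, and replicate 5 lay below them all. In the Rnf20-labelled group only replicate 18 exceeded all naive libraries, while replicates 4, 14 and 20 lay below them all. The coefficient of variation was 14.5% in naive libraries, 78.2% in scrambled trained libraries and 78.9% in Rnf20-labelled libraries. The log2 fold change of scrambled trained against naive was 1.85 (SE 0.53; adjusted p = 0.379). Leaving out scrambled trained replicate 10 gave 1.33 (adjusted p = 0.452), and the reactive glia covariate gave 1.12 (adjusted p = 0.618). The choroid plexus score as a covariate gave 2.23 at adjusted p = 0.0492; over all 26 alternatives the adjusted p ran from 0.0492 to 0.819.

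Acta2 encodes the smooth muscle form of actin. It was at 9.40, 11.0, 8.49, 14.7 and 4.77 CPM in naive libraries, at 10.5, 9.54, 28.4, 5.02 and 8.45 CPM in scrambled trained libraries and at 11.3, 10.5, 6.67, 12.4 and 7.29 CPM in Rnf20-labelled libraries. Apart from scrambled trained replicate 10, all 14 other libraries lay between 4.77 and 14.7 CPM, and the groups overlapped throughout. The log2 fold change of scrambled trained against naive, 0.35 (SE 0.39; adjusted p = 0.786), was -0.21 without that library. With a standard error of 0.39 on this scale, changes from -27.8% to 126% lie within the interval.

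Other contractile genes did not share a direction from naive to scrambled trained. Of 16 tested smooth muscle genes 9 were above 0 and 7 below (median 0.04), with Mylk at -0.30. The genes described next were all above 0, and Myh11, Myl9 and Cnn1 were chosen after their values were seen. Myh11, the smooth muscle myosin heavy chain, was at 18.7 ± 3.08 CPM in naive, 20.1 ± 4.18 CPM in scrambled trained and 18.1 ± 4.65 CPM in Rnf20-labelled libraries (scrambled trained against naive 0.10 on the log2 scale, SE 0.18; adjusted p = 0.886). Myl9, the regulatory light chain, was at 14.9 ± 1.80, 21.4 ± 9.56 and 14.3 ± 4.17 CPM, with 0.52 for the same comparison (SE 0.27; adjusted p = 0.539). Tpm2, a tropomyosin, was at 9.92 ± 0.51, 13.1 ± 1.94 and 11.2 ± 2.16 CPM, with 0.40 (SE 0.13; adjusted p = 0.384). Cnn1, the actin-binding calponin, gave 1.68 (SE 0.84; adjusted p = 0.529) on 2 to 86 counts per library, and was highest in scrambled trained replicate 10 at 5.05 CPM and Rnf20-labelled replicate 18 at 3.69 CPM, the libraries highest for Tagln in their groups. Whether the fold change of Tagln differs from those of the other genes was not tested.

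Over the 15 libraries, the genes whose log2 CPM followed Tagln most closely were Kif18b (Pearson r 0.95), Kif20b (0.94) and Ccna2 (0.93), mitotic kinesins and a cyclin of dividing cells, which were picked as the 3 highest correlations among all genes tested. Kif20b was at 2.38 ± 0.32 CPM in naive, 4.98 ± 1.90 CPM in scrambled trained and 2.89 ± 1.66 CPM in Rnf20-labelled libraries. Ccna2 was at 1.88 to 2.99 CPM in naive libraries and reached 14.7 CPM in scrambled trained replicate 10 and 8.98 CPM in Rnf20-labelled replicate 18, the libraries that were highest for Tagln in their groups. For Acta2 the 3 closest were Mcm8 (0.84), Rarb (0.82) and Cald1 (0.81). The fibroblast marker Dcn did not track either gene upward, with r of -0.10 with Tagln (permutation p = 0.719; rho -0.07, p = 0.812) and -0.51 with Acta2 (permutation p = 0.0515; rho -0.51, p = 0.0545). Dcn does not stand for its whole list. Summed over 15 fibroblast and meninges genes, the level was highest within its group in scrambled trained replicate 10 and Rnf20-labelled replicate 18. The sums were 531 and 359 CPM there and 313 to 425 CPM in naive libraries. Igf2 and Pdgfra made up most of this sum, with naive means of 157 and 92.5 CPM, against 15.6 CPM for Dcn. It was lowest in scrambled trained replicates 5 and 16 (180 and 188 CPM) and Rnf20-labelled replicate 20 (140 CPM). These libraries also had the lowest choroid plexus sums. What part such tissue had in Tagln and Acta2 was not tested.

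**Figure D2:**
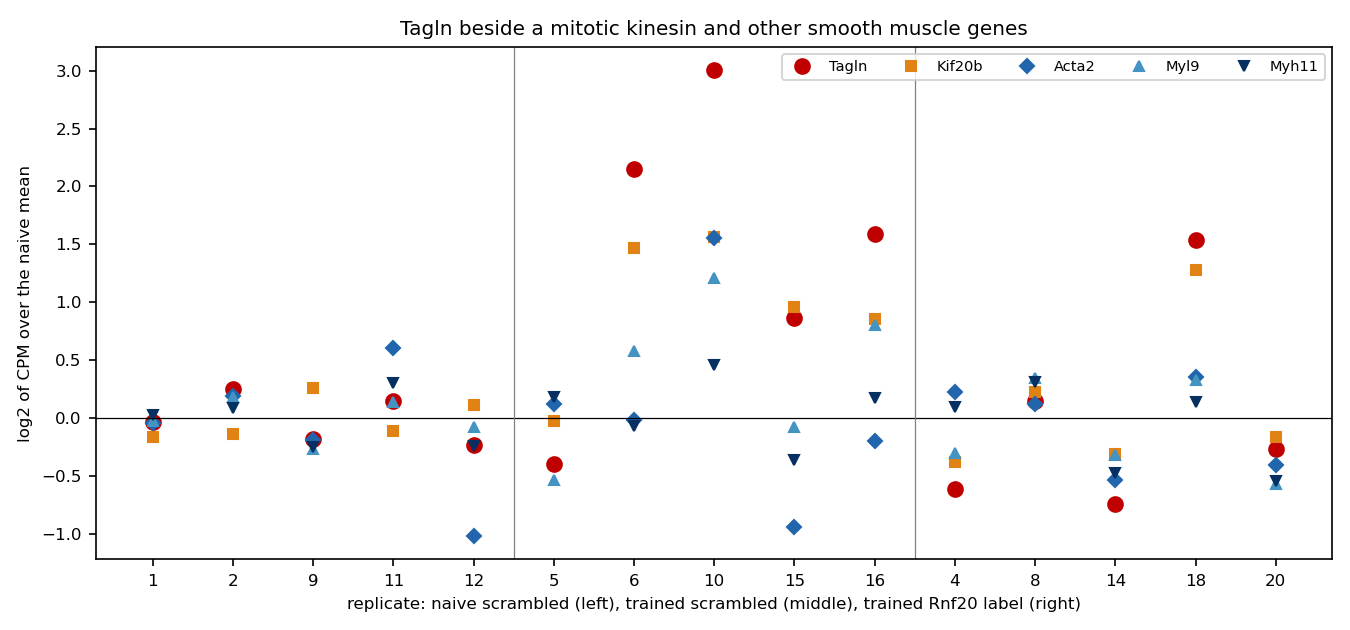
Tagln, the mitotic kinesin gene Kif20b and the smooth muscle genes Acta2, Myl9 and Myh11 in each library, as log2 of CPM over the naive mean; symbols are genes and columns are libraries, with the groups separated by vertical lines. Tagln and Kif20b are both high in scrambled trained replicates 6, 10, 15 and 16 and Rnf20-labelled replicate 18, where Myh11 lies closer to 0.

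Slc22a8 encodes organic anion transporter 3, which removes organic anions and many drugs from the brain and sits in both the capillary endothelium and the choroid plexus epithelium. It was at 13.9, 12.8, 16.8, 13.2 and 15.0 CPM in naive libraries. Scrambled trained libraries held 7.85, 10.5, 11.1, 7.54 and 8.69 CPM and Rnf20-labelled libraries held 11.2, 11.2, 8.25, 9.34 and 7.36 CPM. All 10 trained libraries lay below all 5 naive libraries, a pattern shown by 7 of the 14880 genes tested (0.047%). Scrambled trained against naive gave -0.65 (SE 0.14; adjusted p = 0.379), a change of -36.4% with an interval of -48.5% to -21.3% and the eighth smallest p of all genes. DESeq2 gave -0.66 at adjusted p = 0.0192, the lowest over 26 alternatives, whose highest was 0.819.

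Because choroid plexus also carries this transporter, its level was set beside that of the plexus. Ttr, the main secreted protein of choroid plexus, was at 1290 to 4016 CPM in naive libraries, but at 6.99 and 37.0 CPM in scrambled trained replicates 5 and 16 and at 73.7 CPM in Rnf20-labelled replicate 20. Slc22a8 was at 7.85, 8.69 and 7.36 CPM in these 3 libraries of low plexus content, against 7.54 to 11.2 CPM in the other 7 trained libraries. Scrambled trained replicate 10, with 3886 CPM of Ttr, had 11.1 CPM of Slc22a8, below every naive library. All 14 choroid plexus genes were below 0 in scrambled trained against naive libraries (median -0.92), 0 of them at an unadjusted p under 0.05. Without the 3 libraries of low plexus content the fold change of scrambled trained against naive was -0.57 (adjusted p = 0.181), and with the choroid plexus score as a covariate it was -0.48 (adjusted p = 0.106). The libraries fall into separate clusters by Ttr, so no correlation over all 15 is given; over the 12 with high Ttr, r was 0.53 (permutation p = 0.0795, adjusted p = 0.137; rho 0.38, p = 0.220), and 0.56 without the 2 libraries farthest from the median of Slc22a8. Inside each of the 3 groups Slc22a8 and Ttr varied in the same direction, on 5 libraries each. What part plexus content had in the Slc22a8 values was not tested. The genes closest to Slc22a8 over the 15 libraries were Cavin2 (0.85), a coat protein of caveolae, Acsl1 (0.85) and Slc5a5 (0.83).

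**Figure D3:**
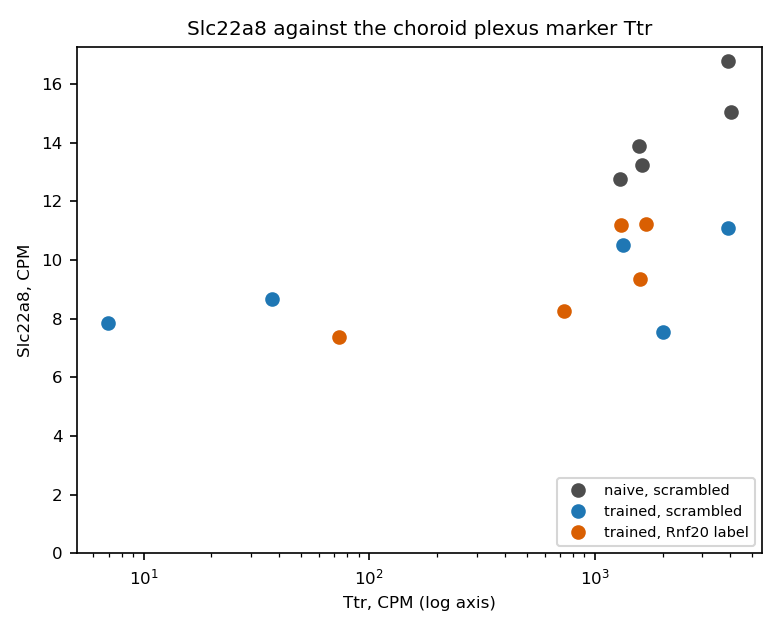
Slc22a8 in CPM, on an axis that starts at 0, against Ttr in CPM on a log axis, 1 point per library. All trained points lie below the naive points, both in the 3 libraries with Ttr at 6.99 to 73.7 CPM and in those with Ttr at 731 CPM or more.

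The second question was whether vascular transcripts differed under the Rnf20 siRNA label among trained rats. Tagln was lower in the Rnf20-labelled than in the scrambled trained libraries (-1.57 on the log2 scale, SE 0.52; adjusted p = 0.832), with overlap, and the other fold changes lay between -0.36 and 0.22. edgeR called 0 genes (0%), with 835 at an unadjusted p under 0.05, while DESeq2 called 1, which was no member, and limma-voom 0. Of the 8 members 1 was lower at an unadjusted p under 0.05, beside 2.98% of all genes, and 0 were higher, beside 2.63%. No member was free of overlap, beside 0.659% of all genes. The median of the 8 fold changes was 0.09, against 0.00 over all genes. Rgs5 (0.22, SE 0.11), Kdr (0.17, SE 0.11) and Pdgfrb (0.17, SE 0.10) were higher by value in the Rnf20-labelled libraries, with intervals of -0.84% to 37.2%, -5.00% to 33.3% and -2.54% to 30.1%. Slc22a8 differed by 0.06 (SE 0.15), with an interval of -16.0% to 28.9%. The Tagln difference was -1.03 (adjusted p = 0.861) without scrambled trained replicate 10 and -2.19 (adjusted p = 0.242) without Rnf20-labelled replicate 18. Reactive glia and red cell genes were also lower by value, with Gfap at 5473 ± 1116 CPM in scrambled trained and 3609 ± 1507 CPM in Rnf20-labelled libraries and Hbb at 274 ± 173 and 136 ± 82.9 CPM. Under the reactive glia covariate the Tagln difference was -1.11 (adjusted p = 0.732).

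The remaining pair of groups, Rnf20-labelled against naive, shares its libraries with both comparisons above and so gives no independent evidence. Slc22a8 was again lower, with a change of -33.8% and an interval of -46.5% to -18.1% (log2 fold change -0.59, SE 0.14; adjusted p = 1.00), and had the second smallest p of all genes. edgeR called 0 genes (0%), with 342 at an unadjusted p under 0.05, while DESeq2 called 1, no member, and limma-voom 0. Among the members 1 was lower at an unadjusted p under 0.05, beside 1.09% of all genes, and 0 were higher, beside 1.21%. The same gene alone was lower without overlap, beside 0.249% of all genes. Kdr was lower by value (-0.24, SE 0.11), with Rgs5 at -0.13, Pdgfrb at -0.12, Flt1 at -0.12 and Tek at -0.16. Tagln was higher by value at 0.29 (SE 0.52), with a wide interval of -43.3% to 162%. Acta2 at -0.0049 (SE 0.39) was close to the naive level within a wide error. Leaving out the 3 libraries of low plexus content gave -0.52 for Slc22a8 (adjusted p = 1.00).

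**Figure D4:**
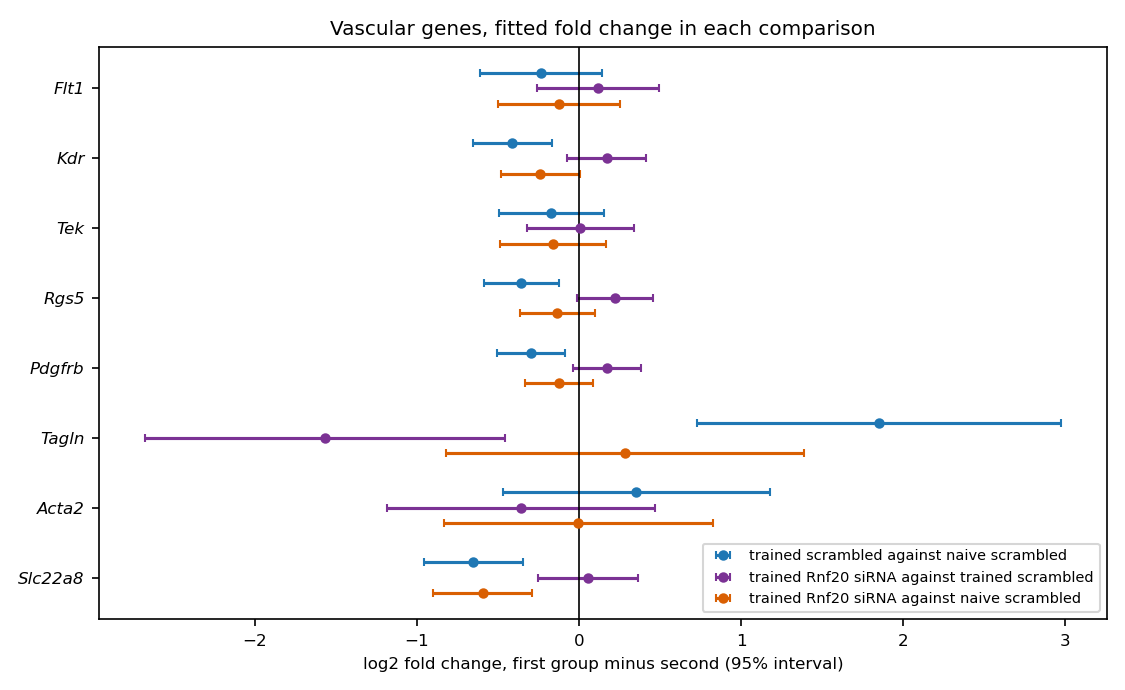
Fitted log2 fold change of each vascular gene with its 95% interval in the 3 comparisons, first group minus second; the vertical line marks no difference. The intervals of Slc22a8 lie below 0 in both comparisons with naive libraries, those of Kdr, Rgs5 and Pdgfrb lie below 0 for scrambled trained against naive, and those of Tagln and Acta2 are the widest.

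Over the 15 libraries Flt1, Kdr, Tek, Rgs5 and Pdgfrb varied together, while Slc22a8 followed Kdr (r 0.70, permutation p = 0.00415, adjusted p = 0.0184; rho 0.75, p = 0.00196) and Flt1 less closely (r 0.33, permutation p = 0.239, adjusted p = 0.322; rho 0.35, p = 0.196). With group means subtracted these Slc22a8 values were 0.33 and 0.10. Without the 2 libraries farthest from the median of Kdr, Slc22a8 and Kdr gave r 0.61 (permutation p = 0.0277, adjusted p = 0.0936). Inside the naive group Slc22a8 varied in the opposite direction to all 5 of these genes. Inside the scrambled trained group it did so with Tek only, and inside the Rnf20-labelled group with none. Of 31 relations computed, 28 between members and 3 with Ttr or Dcn, 12 had an adjusted permutation p under 0.05 by Pearson's r and 10 by Spearman's rho. The closest pair was Kdr and Rgs5 (r 0.91, permutation p = 1e-05, the smallest that 100000 resamples can give; adjusted p = 0.00031; rho 0.90, p = 2e-05), with r 0.88 without the 2 libraries farthest from the median of Kdr and 0.86 with group means subtracted. Flt1 and Tek followed (r 0.83, permutation p = 0.00033, adjusted p = 0.00341; rho 0.74, p = 0.00231), with 0.73 without 2 libraries and 0.82 with group means subtracted. Flt1 and Rgs5 (r 0.81, permutation p = 0.00022, adjusted p = 0.00341; rho 0.74, p = 0.00277) gave 0.60 without Rnf20-labelled replicate 18 and scrambled trained replicate 15, where the adjusted p was 0.0936, so that this relation rests partly on those libraries. Tagln was negative with each of these 5 genes over the 15 libraries; with Rgs5 r was -0.59 (permutation p = 0.0193, adjusted p = 0.0498; rho -0.47, p = 0.0795) and -0.36 with group means subtracted. Inside each trained group Tagln was also negative with all 5. Inside the naive group the sign held for Kdr only, where the relation was weak. Tagln varied there in the same direction as Flt1, Tek and Pdgfrb, and less closely as Rgs5, and Acta2 also varied in the same direction as these 4. A group of 5 libraries is too small to give an r. Tagln and Acta2 gave r 0.51 (permutation p = 0.0569, adjusted p = 0.104; rho 0.33, p = 0.236) and 0.10 without scrambled trained replicates 10 and 6. With group means subtracted 4 relations had an adjusted p under 0.05: those of Flt1 with Kdr, Tek and Rgs5 and of Kdr with Rgs5. Without the 2 libraries farthest from the median of Flt1, however, Flt1 and Kdr gave r 0.47 (permutation p = 0.100, adjusted p = 0.173). Leaving out 2 libraries likewise gave an adjusted permutation p of 0.0936 for Pdgfrb with Flt1, Pdgfrb with Kdr and Kdr with Tek.

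**Figure D5:**
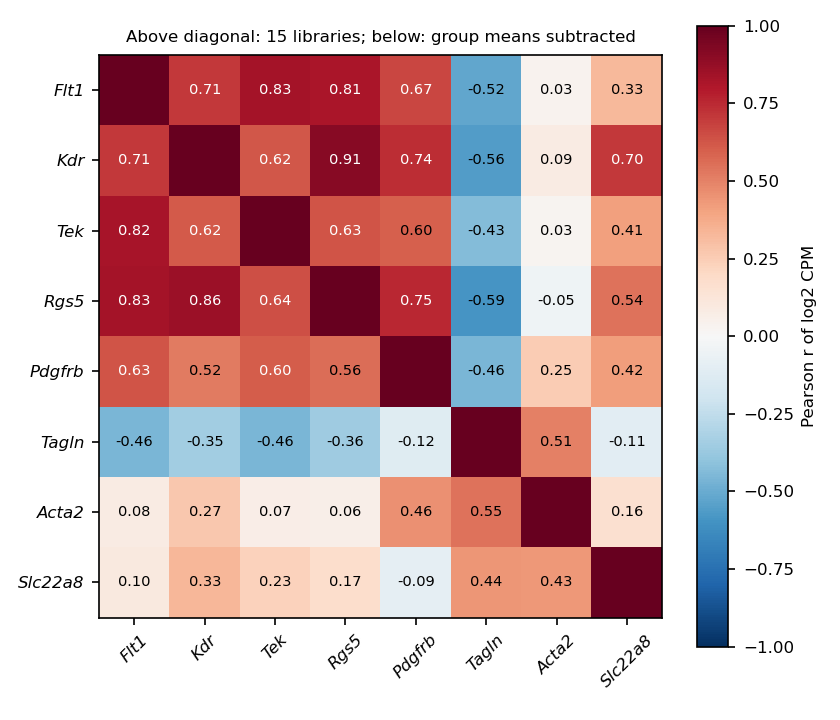
Pearson r of log2 CPM between the vascular genes, over 15 libraries above the diagonal and with each group's mean subtracted below it; red is positive and blue negative. Flt1, Kdr, Tek, Rgs5 and Pdgfrb form a block of positive values from 0.52 to 0.91, while Tagln is negative with all 5.

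The 3 genes closest to each of these members were named by the same rule. Rgs5 and Adgrf5 (0.89) were among the 3 closest to Kdr, with Tnfsf10 (0.90). Slco1a4, a transporter of brain endothelium, was closest to Tek (0.92), before Slc27a1 (0.90) and Abhd3 (0.89). Pdgfrb was followed by Mecom (0.88), Sox17 (0.86) and Eln (0.83), the first pair transcription factors of arterial endothelium and the last the elastin of arterial walls. Wnt5b (0.92), Kdr and Usp30 (0.90) were closest to Rgs5. Flt1 was closest to AABR07070131.1 (0.90), Adgrg1 (0.90) and Agpat3 (0.88). These genes were picked as the highest of 14880 correlations over the same 15 libraries.

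Wider lists of vascular genes gave the setting of the members after training under scrambled siRNA. None of their genes passed adjusted p 0.05 in any of the 3 comparisons, and those named here for the first had an adjusted p of 0.379 to 0.538. Of 28 endothelial identity genes 22 were below 0 (median -0.11), 0 were higher and 3 lower at an unadjusted p under 0.05; over all genes 52.8% were below 0, 6.62% higher and 3.35% lower at that p. Mecom was at 3.02 ± 0.71 CPM in scrambled trained and 5.05 ± 0.58 CPM in naive libraries, without overlap (-0.74, SE 0.18), and Clec14a, a receptor of angiogenic endothelium, at 4.98 ± 0.38 and 7.88 ± 1.87 CPM (-0.66, SE 0.20). Among 17 pericyte genes 14 were below 0 (median -0.23) and 2 were higher and 0 lower at an unadjusted p under 0.05, to be read against the same shares of all genes. Those 2, Anpep (1.43, SE 0.53) and Ifitm1 (1.58, SE 0.61), encode an aminopeptidase and an interferon-induced protein that myeloid and other cells also make. The summed level of 9 leukocyte genes was 82.0 to 138 CPM in naive and 144 to 560 CPM in scrambled trained libraries, and their part in these values was not tested.

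Of 20 genes for junctions and barrier transport 14 were below 0 (median -0.08), with Lrp8, a lipoprotein receptor, at -0.18 (SE 0.08) and Slc3a2, the heavy chain of amino acid exchangers, at 0.25 (SE 0.09). The VEGF and angiopoietin list split evenly, 10 above and 10 below 0 (median 0.0049). Dll4, the Notch ligand of sprouting and arterial endothelium that VEGF induces, was at 1.63 ± 0.35 against 2.67 ± 0.55 CPM (-0.71, SE 0.23), and Hif1a, the oxygen-sensing transcription factor, at 95.5 ± 13.6 against 84.7 ± 5.36 CPM (0.17, SE 0.09). Of 16 tested smooth muscle genes 9 were above 0 and 7 below (median 0.04), with Tpm2 as above and Mylk, the myosin light chain kinase, at -0.30 (SE 0.12). Basement membrane genes gave 5 above and 8 below 0 of 13 (median -0.03), with the collagen Col4a2 at -0.28 (SE 0.11) and the laminin Lama2 at -0.77 (SE 0.31).

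Activated endothelium genes were the vascular list with the highest median, 0.51 over 9 tested genes, 6 of them above 0. Its members of smallest p were chemokines that glia and leukocytes make as well. Cxcl10 was at 8.58 ± 9.91 CPM in scrambled trained and 1.79 ± 0.83 CPM in naive libraries (2.26, SE 0.68), and Ccl2 at 13.0 ± 13.3 and 1.91 ± 1.67 CPM (2.76, SE 0.91). Their scrambled trained libraries ran from 1.23 to 25.0 and from 1.57 to 34.4 CPM, so that both groups overlapped.

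Between the trained groups the median fold change was -0.01 for endothelial identity, -0.05 for junctions and transport, 0.05 for the VEGF and angiopoietin pathway, 0.11 for pericyte, -0.03 for smooth muscle, 0.0038 for basement membrane and -0.60 for activated endothelium genes. Mecom (0.41, SE 0.19) and Col4a2 (0.26, SE 0.11) were higher by value in Rnf20-labelled libraries, and Myl9 (-0.58, SE 0.27), Cxcl10 (-2.06, SE 0.67) and the leukocyte adhesion molecule Vcam1 (-0.28, SE 0.12) lower, all at adjusted p = 0.832. In Rnf20-labelled against naive libraries, Clec14a (-0.59, SE 0.20), Mmrn2 (-0.40, SE 0.14), the tight junction gene Ocln (-0.40, SE 0.17), Des (-0.43, SE 0.17) and Lama2 (-0.89, SE 0.32) were lower by value, all at adjusted p = 1.00.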

How the data were processed

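Poly(A) RNA of bulk dorsal CA1 was sequenced from libraries made with a stranded kit, per the labels' protocols. Per the submitters' processing notes, the authors used Trim Galore, FastQC, featureCounts 2.0.1, DESeq2 and build Rnor 6.0; for the aligner, annotation release and strand setting, nothing is given in the sources used here. Raw gene counts were taken from the table deposited by the authors. The authors' normalised table, a signal equal to the count over a size factor within a relative tolerance of 1e-06 in every gene, served as a check only. Groups came from the titles. Nothing states that libraries came from separate animals, so p-values measure the spread between these samples. Between libraries of the same group, chi-square per degree of freedom was 9.07 to 69.7, so this spread is larger than counting error alone. Whether the rest of it lies between animals or is technical was not tested.

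Genes were filtered with filterByExpr (14880 tested, 99.9% of counts), scaled by TMM and fitted over all 15 libraries with edgeR 4.0.16 (robust quasi-likelihood, R 4.3.3), two-sided, with Benjamini-Hochberg adjustment over all genes tested; the biological coefficient of variation was 0.208. Levels are CPM on TMM-scaled library sizes; correlations used log2 CPM (prior count 2). Alternatives were DESeq2 1.42.0, limma-voom (limma 3.58.1), other scalings and filters, glial and choroid covariates and left-out libraries. The fit was tested on simulated data. Promoter sequences came from RefSeq's table in build GRCr8, by symbol. Members and lists were chosen with earlier results of these data known. Named list genes are the 2 of smallest p per list and comparison with a mean of at least 1 CPM; Rnf20, Gfap, Timp1, Hbb, Myh11, Myl9 and Cnn1 were chosen after their values were seen.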

Additional observations from a re-analysis of the deposited data

Results flagged for a closer look

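Of 24 sets of 5 libraries (8 vascular genes in 3 groups), 2 held a library far from the other 4 by a gap test whose critical ratio for 5 is 0.71, where chance gives about 1 in 20. Tagln was at 99.2 CPM in Rnf20-labelled replicate 18, and the next library of that group was at 37.8 CPM. Acta2 was at 28.4 CPM in scrambled trained replicate 10, and the next was at 10.5 CPM. Both libraries had high reactive glia levels, 9063 and 9414 CPM summed, and the part of that in these values was not tested.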

How the results depend on the processing

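No paired analysis was possible because the groups share no replicate number. The count of genes called, 0 in each comparison, became 58 (scrambled trained against naive) and 1 in each other comparison with DESeq2, 111 in the first with the choroid plexus covariate, and 1 for Rnf20-labelled against naive without naive replicate 9 (0 to 1 over left-out libraries); it stayed 0 under the other alternatives run. Relations past the threshold went from 12 to 4 with group means subtracted and to 5 without the 2 farthest libraries.

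For scrambled trained against naive, signs turned for Flt1 (0.0075) and Tek (0.0056) with the reactive glia covariate and for Acta2 (-0.022) without the 4 libraries far out on principal component 1 (scrambled trained replicates 10 and 15, Rnf20-labelled replicates 14 and 18), and Acta2 ran from -0.21 to 0.57 over left-out libraries.

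For Rnf20-labelled against scrambled trained, they turned for Flt1 (-0.13) and Tek (-0.17) with the glia covariate, Tek with limma-voom (-0.0028), upper-quartile scaling (-0.0044) and without those 4 libraries (-0.047), Acta2 without them (0.026) and Slc22a8 with the choroid covariate (-0.00056). Over left-out libraries Tek ran from -0.10 to 0.10, Acta2 from -0.56 to 0.22 and Slc22a8 from -0.013 to 0.14.

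For Rnf20-labelled against naive, they turned without the 4 libraries for Flt1 (0.029), Rgs5 (0.036), Tagln (-0.21) and Acta2 (0.0040), and for Acta2 with limma-voom (0.055), the 2 groups alone (0.0060), the choroid covariate (0.15) and without the 3 libraries of low plexus content (0.080). Over left-out libraries Flt1 ran from -0.21 to 0.015, Tagln from -0.32 to 0.46 and Acta2 from -0.17 to 0.19.

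None of these values passed adjusted p 0.05, and the cause was not tested. Acta2 rested on 67 to 484 counts per library and Slc22a8 on 99 to 277, with standard errors of 0.39 and 0.14 for scrambled trained against naive.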
